A study of Homo sapiens with 16 samples.

Results

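Human mitochondrial DNA encodes 37 genes, and their RNA was followed here in A549 and SUM159 cells that were left untreated or given palbociclib, indisulam or both drugs. The set holds every gene whose GENCODE symbol starts with MT-, which was 37 of the 58676 gene identifiers in the count files, and all 37 lie on chromosome M of GRCh38. It comprises 13 protein-coding genes, 2 ribosomal RNA (rRNA) genes and 22 transfer RNA (tRNA) genes. The set was chosen by measured values: in these same libraries its genes were about 2-fold higher with both drugs in SUM159 only. Differences of its genes from untreated cells in either line, and the difference between the lines in those responses, are therefore given as a description: counts of edgeR calls stand beside the share of all genes called, with no p-value, and nothing is read from them. The same holds for the other comparisons of the set, because libraries of both lines were used in its choice. No p-value is printed for its genes.

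A549 cells derive from a lung tumour and SUM159 cells from a triple-negative breast tumour. Palbociclib inhibits the cell cycle kinases CDK4 and CDK6, and indisulam brings the splicing factor RBM39 to a ubiquitin ligase for degradation. For each line there were 4 groups of 2 libraries: untreated (UT), 2 µM palbociclib (PD), 3 µM indisulam (IN) and both drugs at those doses (P+I), the treated groups after 16 h. The study calls the duplicates technical, so every p-value below measures only the spread between these samples. A549 was kept in RPMI medium and SUM159 in DMEM/F12 medium with insulin and hydrocortisone, so that line and medium cannot be told apart. In bulk RNA, fewer cells of a kind and less RNA per cell cannot be told apart either. The 5 epithelial markers EPCAM, CDH1, KRT8, KRT18 and KRT19 summed to between 8880 and 14400 CPM (counts per 1e6 gene counts, on scaled library sizes) in A549 and to between 872 and 1220 CPM in SUM159. The 5 mesenchymal markers VIM, ZEB1, CDH2, SPARC and TWIST2 summed to between 790 and 983 CPM in A549 and to between 3620 and 4690 CPM in SUM159, so the breast cancer line carried little of the epithelial RNA and more of the mesenchymal.

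Mitochondrial DNA is a small circle that is present in many copies per cell and is transcribed inside the organelle by its own RNA polymerase, POLRMT, together with the factors TFAM and TFB2M. Both strands are read as long precursors that are cut at the tRNAs into rRNAs, mRNAs and tRNAs, so most of these genes share a promoter and the level of each RNA also depends on its processing and decay. The 13 proteins are subunits of the respiratory chain and of ATP synthase, which are completed by many nuclear-encoded subunits, and the rRNAs form the core of the mitochondrial ribosome. In proliferating tumour cells these transcripts are among the most abundant RNAs that carry a poly(A) tail.

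Libraries were made from poly(A) RNA, and in mitochondria the tail has a further role: where a gene ends inside its stop codon, the tail supplies the missing letters. The ends of 6 of the 13 protein-coding genes have lengths that are not a multiple of 3. Their last 20 bases, from the GRCh38 sequence and 5′ to 3′ on the coding strand, are shown here with the part of the stop codon that the DNA holds in capitals, followed by MT-ND5 and MT-ND6 for comparison, whose stop codons are complete.
MT-ND1 (M:4243-4262, plus strand): agcattccccctcaaaccTA
MT-ND2 (M:5492-5511, plus strand): ttttatactaataatcttaT
MT-CO3 (M:9971-9990, plus strand): catctattgatgagggtctT
MT-ND3 (M:10385-10404, plus strand): aggattagactgaaccgaaT
MT-ND4 (M:12118-12137, plus strand): cattaccgggttttcctctT
MT-CYB (M:15868-15887, plus strand): caaaatactcaaatgggccT
MT-ND5 (M:14129-14148, plus strand): ccctactcctaatcacaTAA
MT-ND6 (M:14149-14168, minus strand): agattgctcgggggaatAGG
MT-ND6 is the only protein-coding gene of the minus strand in this annotation, and its mRNA is known for lacking a long tail.

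Neighbouring genes also overlap, so that a read from one can be a read from the other. MT-ATP8 and MT-ATP6, subunits of ATP synthase made from 1 mRNA, share 46 bases (M:8527-8572). MT-ND4L and MT-ND4, subunits of complex I that also share an mRNA, overlap by 7 bases (M:10760-10766), and MT-ATP6 and MT-CO3 by 1 base. The second overlap is shown with 10 bases on each side and the shared bases in capitals.
MT-ND4L and MT-ND4 (M:10750-10776, plus strand): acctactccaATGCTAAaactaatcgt
These letters hold the start codon of MT-ND4 and the stop codon of MT-ND4L. Between 6.24% and 7.85% of the alignments to chromosome M were set aside in the deposited files as ambiguous between genes, between 6.99% and 8.17% as not unique and between 2.31% and 3.43% as outside genes. Copies of mitochondrial DNA in the nuclear genome matter for the same reason. Of 16420 windows of 75 bases (the read length) on chromosome M, 2383 had an identical copy among the nuclear sequences of GRCh38, 1970 of them on chromosome 1. The share of windows with such a copy was 36.6% in MT-CO1, 34.4% in MT-ND2, 28.4% in MT-RNR1, 28.0% in MT-ATP6, 17.1% in MT-ND1, 14.9% in MT-CO3, 10.5% in MT-CO2, 7.10% in MT-ND6 and 3.37% in MT-RNR2. It was 0.173% in MT-ND5 and 0% in MT-ATP8, MT-ND3, MT-ND4L, MT-ND4 and MT-CYB.

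Gene counts per library ran from 18306636 to 34075588, of which between 401515 and 2087546 fell on the 37 genes. Chi-square values per degree of freedom for duplicates lay above 1 throughout, from 1.59 (SUM159 IN) to 9.13 (SUM159 UT), which is more than counting noise. The untreated SUM159 pair stood apart for these genes in particular. Without the 37 genes its chi-square per degree of freedom was 2.09. Among the 10644 genes that averaged 5 CPM or more in SUM159, 18 differed by more than 1.5-fold between its libraries, and 13 of them were mitochondrially encoded, out of 15 such genes at that level. In the other 7 groups none of the 15 differed by that much. The 13 mRNAs were lower in untreated replicate 2 than in replicate 1 by a median of 0.92 on the log2 scale (a log2 difference of -0.92), from -1.05 for MT-ATP8 to -0.35 for MT-ND6. MT-RNR2 differed by -0.86 and MT-RNR1 by -0.55. Over all 10644 genes the median was 0.0007, and it lay between -0.03 and 0.02 in each of 10 lists of nuclear genes for mitochondrial proteins. The main medians and counts that rest on this pair are given with and without replicate 2, genes described singly with their range when 1 library was left out, and what set the pair apart was not tested.

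The share of gene counts on the 37 genes was the first measure. In untreated A549 it was 6.73% and 7.28% in the 2 libraries, with PD 7.15% and 5.79%, with IN 8.75% and 7.43% and with P+I 6.19% and 7.74%. The treated and untreated ranges of A549 overlapped except with IN, where the lower library was 1.02 times the higher untreated one. In untreated SUM159 it was 3.44% and 1.83%, with PD 4.78% and 5.57%, with IN 5.33% and 5.44% and with P+I 6.85% and 6.29%. All 6 treated SUM159 libraries lay above both untreated ones. The ratio of the treated mean to the untreated mean was 1.96 with PD, 2.04 with IN and 2.49 with P+I. Set against untreated replicate 1 alone these ratios were 1.5, 1.57 and 1.91, and against replicate 2 alone 2.83, 2.94 and 3.59. The size of the difference thus depended on which untreated library was used, while its direction did not. Wilson 95% intervals of the shares were at most 0.0238 percentage points wide, and they cover only counting error within a library. Copies made by PCR are not separate molecules, so the intervals can be too narrow even for that error.

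**Figure D1:**
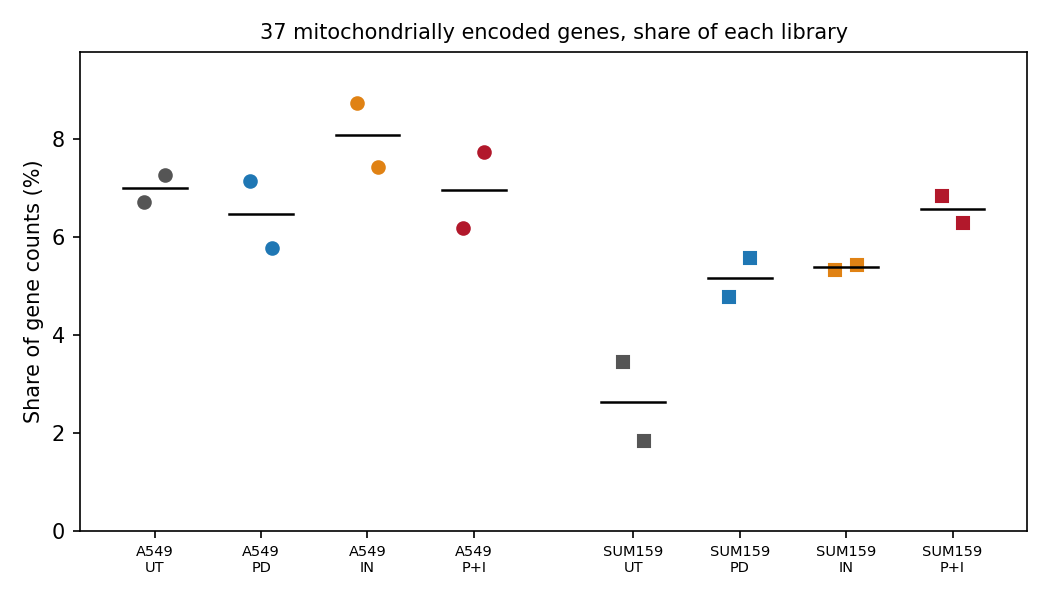
Share of gene counts (%) on the 37 mitochondrially encoded genes in each library (points; circles A549, squares SUM159) with the group mean (horizontal line). The untreated SUM159 libraries, at 3.44% and 1.83%, lie below all other libraries and far from each other.

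Levels were compared between genes as CPM per kilobase of gene, on library sizes scaled over all 16 libraries. The libraries were made from poly(A) RNA, so a level is that of the RNA captured. The order of rRNAs and mRNAs is therefore not an order of abundance in the cells. In untreated A549 the highest means were those of MT-CO2 (10600 ± 741, SD, n = 2), MT-ND4 (9420 ± 536), MT-CO1 (9350 ± 523) and MT-CO3 (9260 ± 444). The last 3 had overlapping ranges and MT-CO2 lay above them. MT-RNR2, the large rRNA, followed with 7330 ± 504 CPM per kilobase and MT-ATP6 with 5630 ± 204. The lowest were MT-ND3 (1390 ± 64.5), MT-RNR1, the small rRNA (748 ± 26.9), and MT-ND6 (315 ± 4.65). In untreated SUM159 the order began likewise with MT-CO2 (4500 ± 1850), MT-CO3 (3740 ± 1550), MT-ND4 (3620 ± 1640) and MT-CO1 (3480 ± 1590) and ended with MT-ND3 (596 ± 178), MT-RNR1 (256 ± 66.7) and MT-ND6 (163 ± 27.6). Because its duplicates were far apart, every neighbouring pair from MT-CO2 down to MT-ND3 overlapped in range. MT-RNR2 had rank 5 of the 15 genes in A549 and rank 9 in SUM159, at 1360 ± 550 CPM per kilobase.

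**Figure D2:**
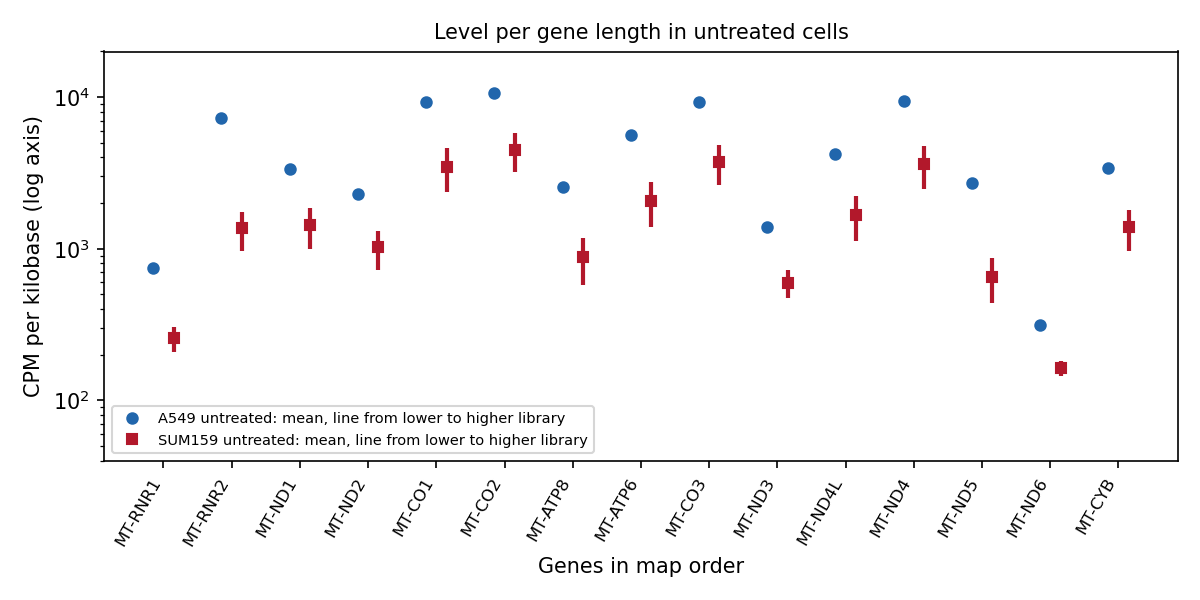
Level of the 13 mRNA and 2 rRNA genes in untreated cells, as CPM per kilobase on a log axis, with genes in map order; symbols are means and vertical lines join the 2 libraries. SUM159 lies below A549 at every gene, most at MT-RNR2 and least at MT-ND6.

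Untreated SUM159 was compared with untreated A549 in the fit of all 16 libraries. The choice of the set used these SUM159 libraries as its baseline and so favoured genes that were low in them, and the differences are given with no p-value. A low-count filter left 22 of the 37 genes, the 13 mRNAs, both rRNAs and 7 tRNAs. Of these, 17 were lower in SUM159 at an adjusted p under 0.05 and 0 higher, where 38% of all 17764 genes tested were lower and 38.3% higher. The median log2 difference of the 22 was -1.30, against -0.01 over all genes. The large rRNA MT-RNR2 (M:1671-3229) differed most, by -2.43 (SE 0.159). MT-ND5 (M:12337-14148), a core subunit of complex I, followed with -2.06 (SE 0.180). MT-CO1 (M:5904-7445), the catalytic subunit of complex IV, differed by -1.43 (SE 0.178). MT-ND6 (M:14149-14673) differed least among the mRNAs, by -0.95 (SE 0.108). Without SUM159 UT replicate 2 the median of the 13 mRNAs was -0.93, without replicate 1 it was -1.82, and 17 and 18 genes were lower. The lone library is then assumed to vary like the other groups.

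In SUM159 all 13 mRNAs and both rRNAs were higher in every treated library than in either untreated one, with each drug and with the combination. Of the 16080 genes tested in that line, 39.1% lay above in the same way with PD, 37.1% with IN and 42% with P+I, and 37.4%, 36.7% and 40.5% below. By edgeR 19 of the 22 tested members were called higher with PD, 17 with IN and 17 with P+I, and 0 lower; over all genes 25.5%, 21.9% and 32.2% were called higher and 29%, 24.9% and 33.1% lower. The choice of the set used these differences, so nothing is read from the counts. The median log2 difference of the 13 mRNAs was 0.78 with PD, 0.93 with IN and 1.10 with P+I. Without untreated replicate 2 these medians were 0.37, 0.54 and 0.69, with 15, 16 and 15 members called higher, and without replicate 1 they were 1.33, 1.49 and 1.66.

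For complex I, the first proton pump of the chain, MT-ND4 had 6999 and 3576 CPM in untreated SUM159, 8393 and 10116 with PD, 10086 and 10051 with IN and 11748 and 10975 with P+I. The duplicates with IN were nearly equal, while the untreated ones were nearly 1 apart on the log2 scale. Its log2 differences from untreated were 0.81, 0.93 and 1.10, and with 1 library left out they ran from 0.40 to 1.38, from 0.52 to 1.5 and from 0.69 to 1.66, lowest without untreated replicate 2 and highest without replicate 1. MT-ND5 had 1683 and 835 CPM untreated, 2351 and 2756 with PD, 2649 and 2629 with IN and 3394 and 3166 with P+I, and log2 differences of 1.02, 1.07 and 1.38. Without untreated replicate 2 these were 0.60, 0.65 and 0.96, and without replicate 1 they were 1.62, 1.66 and 1.97. Both P+I libraries of MT-ND5 lay above all others of the line. MT-ND3 had the smallest differences of the mRNAs with PD and with IN, 0.54 and 0.71 (0.26 and 0.43 without untreated replicate 2, 0.89 and 1.06 without replicate 1), and it also had the second smallest gap between the untreated libraries, 265 and 172 CPM.

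For complex III, MT-CYB, the cytochrome b subunit, had 2198 and 1159 CPM untreated, 2487 and 2977 with PD, 3427 and 3428 with IN and 3814 and 3573 with P+I. Its order was thus PD, IN, P+I, without overlap between those groups. For complex IV, which passes electrons to oxygen, MT-CO1 had 7541 and 3831 CPM untreated, 10743 and 12449 with PD, 11285 and 11587 with IN and 14644 and 13218 with P+I, with log2 differences of 1.03, 1.01 and 1.29 (0.62, 0.60 and 0.88 without untreated replicate 2, 1.60, 1.58 and 1.86 without replicate 1). The PD libraries of MT-CO1 lay on both sides of the IN libraries. For ATP synthase, MT-ATP8 had 261 and 125 CPM untreated, 303 and 366 with PD, 432 and 402 with IN and 445 and 407 with P+I, so its IN and P+I ranges overlapped.

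MT-ND6, the complex I subunit encoded on the minus strand, had 102 and 79.7 CPM untreated, 130 and 171 with PD, 163 and 191 with IN and 159 and 132 with P+I. It was the only one of the 13 mRNAs whose log2 difference was smaller with P+I (0.68) than with either drug alone (0.73 and 0.96). With 1 library left out these values ran from 0.51 to 0.87 with P+I, from 0.51 to 0.92 with PD and from 0.79 to 1.16 with IN. MT-RNR2 had 2890 and 1591 CPM untreated, 4611 and 4987 with PD, 5091 and 5325 with IN and 6579 and 6181 with P+I, and the largest log2 differences of the 15 genes, 1.10, 1.22 and 1.51. Without untreated replicate 2 these were 0.73, 0.85 and 1.14, and without replicate 1 they were 1.60, 1.71 and 2.00. MT-RNR1 had 308 and 211 CPM untreated, 368 and 406 with PD, 461 and 472 with IN and 472 and 435 with P+I.

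**Figure D3:**
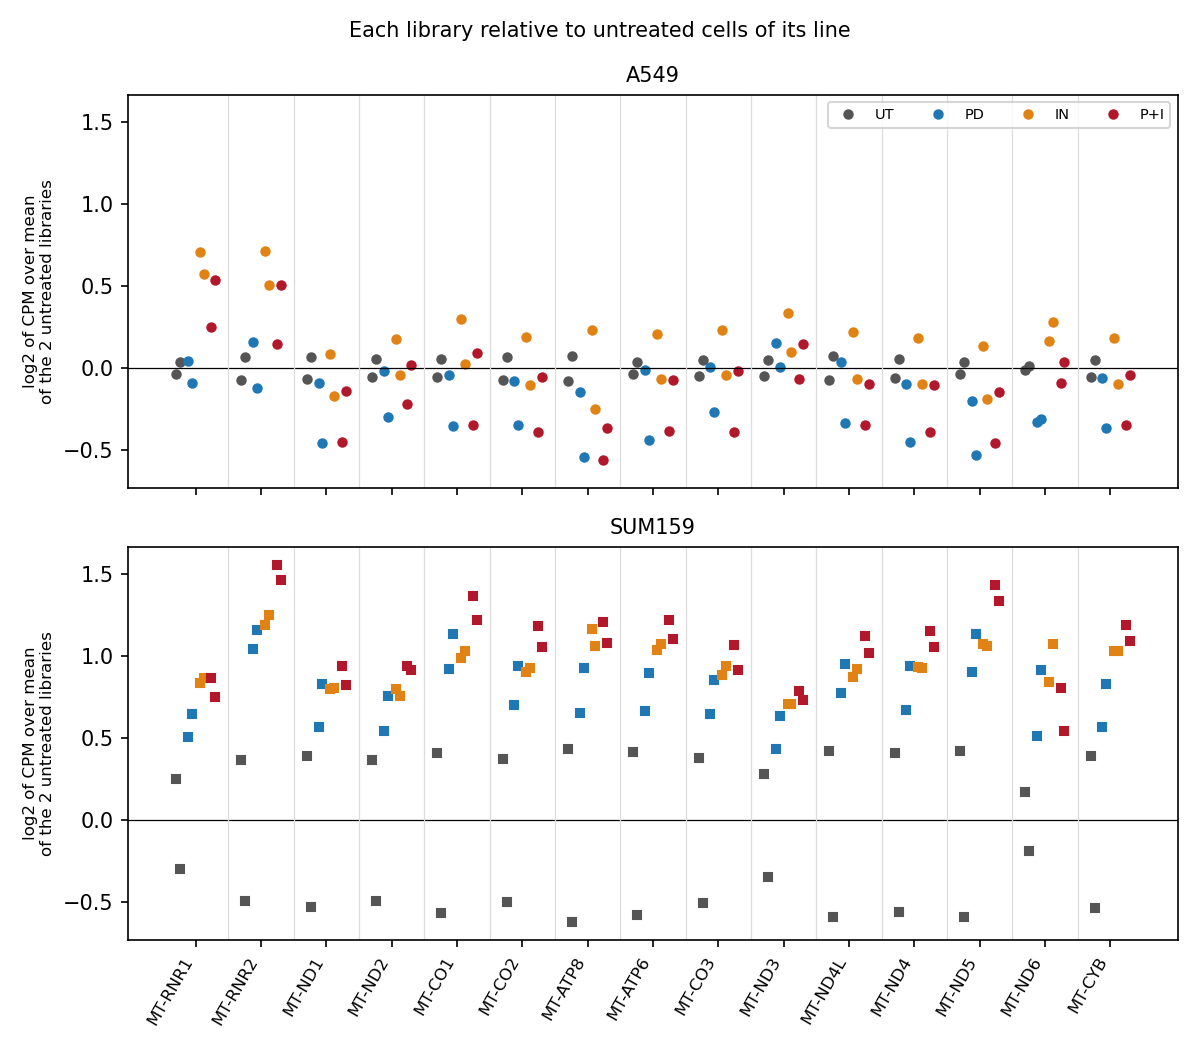
Log2 ratio of each library's CPM to the mean of the 2 untreated libraries of its line, for 13 mRNA and 2 rRNA genes in map order (A549 circles, SUM159 squares; colours give the treatment). In SUM159 every treated point lies above both untreated points, which are themselves about 1 apart for most genes; in A549 most points lie within 0.5 of 0, apart from the rRNAs with indisulam.

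In A549 the same genes lay on both sides of the untreated libraries. The median log2 difference of the 13 mRNAs was -0.21 with PD, 0.07 with IN and -0.21 with P+I. With PD 2 of 22 members were called lower (MT-ND5, -0.36, and MT-ND6, -0.32) and 0 higher, where 21.1% of the 15744 genes tested were lower and 22% higher. The count was 10 lower without PD replicate 1 or either P+I library and 1 lower without UT replicate 2 or PD replicate 2. With IN 5 were called higher and 0 lower, where 23.3% and 25.9% of all genes were: MT-RNR1 (0.64), MT-RNR2 (0.61), MT-ND6 (0.22), MT-ND3 (0.22) and MT-TQ (0.70). With P+I the rRNAs were again higher, by 0.40 for MT-RNR1 and 0.34 for MT-RNR2, and 2 members were called higher and 3 lower beside 27.4% and 30.4% of all genes. MT-RNR2 had 10513 and 11573 CPM in untreated A549, 12303 and 10127 with PD, 18113 and 15708 with IN and 12203 and 15673 with P+I. Both IN libraries lay above all untreated and PD libraries, while PD and untreated libraries overlapped. MT-CO1 had 13398 and 14482 CPM untreated, 13519 and 10915 with PD, 17132 and 14175 with IN and 10948 and 14834 with P+I, and each of its treated groups overlapped the untreated range. Of the 15 genes, 0 lay above and 7 below both untreated libraries with PD (38.2% and 33.2% of all genes), 4 above and 0 below with IN (38.4% and 38%), and 2 above and 6 below with P+I (38.3% and 39%).

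The difference between the lines, SUM159 minus A549, had a median over the 22 tested members of 1.10 for the response to PD, 0.84 for IN and 1.18 for P+I, against 0.08, 0.02 and 0.10 over all genes. Members called higher were 15, 13 and 15, beside 9.65%, 8.04% and 19.1% of the 17764 genes, and 0 were called lower, beside 3.15%, 6.97% and 11.8%. Here too the set was chosen for this difference. Over the 13 mRNAs alone the medians were 1.10 for PD, 0.84 for IN and 1.39 for P+I. Without SUM159 UT replicate 2 the median of the 13 mRNAs was 0.68, 0.48 and 1.00, and 14, 7 and 14 members were called higher. Other single libraries weighed as much: 7 were called for PD without A549 PD replicate 2, and for IN 3 without A549 IN replicate 2, 6 without A549 UT replicate 2 and 8 without SUM159 IN replicate 2. The split of all calls depended on the scaling of the 16 libraries: 75.4% of the calls for PD were higher in SUM159 with TMM scaling, 44% with relative log expression (RLE) scaling and 28.9% when TMM was computed without the MT- genes. Under each of these scalings all members called for PD were higher.

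The combination was compared with each drug alone, which uses no untreated library in the difference itself. The P+I, PD and IN libraries of both lines were nevertheless among those that the choice of the set used. The differences are therefore given with no p-value. In SUM159, 13 of the 15 mRNA and rRNA genes lay above both PD libraries in both P+I libraries and 0 below (36.7% and 35.7% of all genes), and 11 lay above both IN libraries and 1 below (38.4% and 38.2%). By edgeR MT-CYB and MT-RNR2 were higher with P+I than with PD and 0 members lower, beside 23.4% and 24.9% of all genes. MT-CYB had 3814 and 3573 CPM with P+I against 2487 and 2977, a log2 change of 0.43 (SE 0.169). MT-RNR2 had 6579 and 6181 CPM against 4611 and 4987, a log2 change of 0.41 (SE 0.154). Neither was called by DESeq2. Both calls were lost without PD replicate 1 (0.30 and 0.34) and without P+I replicate 1 (0.39 and 0.36) or 2 (0.48 and 0.45), and that of MT-CYB also without either IN library (0.43). Against IN, MT-ND6 was lower with P+I by -0.28 (SE 0.112), with 159 and 132 CPM against 163 and 191, and 0 members were higher, beside 24.9% of all genes higher and 28% lower. That call was lost under every other scaling, under DESeq2, and without IN replicate 2 (-0.17) or P+I replicate 2 (-0.16).

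These counts of calls changed when either untreated library was left out. That pair is in neither comparison, but all 8 libraries share the estimate of spread. More members were then called higher with P+I than with PD or IN. The share of all genes called in those fits is not given here, so nothing is read from that change. The median log2 change of the 13 mRNAs moved little, from 0.27 to 0.26 or 0.27 against PD and from 0.11 to 0.10 or 0.11 against IN.

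In A549 edgeR called 3 members between the combination and PD, both rRNAs and MT-ND6. MT-RNR1 had 819 and 1000 CPM with P+I against 711 and 648 with PD, a log2 change of 0.42 (SE 0.0750). MT-RNR2 was higher by 0.31 (SE 0.104), although 1 P+I library, at 12203 CPM, lay below 1 PD library, at 12303. It was not called by DESeq2 (0.33), and its change was 0.19 without PD replicate 2 and 0.13 without P+I replicate 2. MT-ND6 had 150 and 164 CPM against 127 and 129, a log2 change of 0.29 (SE 0.0509). By edgeR these 3 members were called higher and 0 lower, beside 23.7% of all genes higher and 27.8% lower. In both libraries 2 of the 15 genes lay above PD and 0 below (35.2% and 38.7% of all genes). The 13 mRNAs had a median log2 change of -0.01. Against IN, 8 members were lower with P+I and 0 higher, beside 20.1% and 18.6% of all genes, and 7 of the 15 genes lay below both IN libraries and 0 above (34.1% and 35%). The largest change was that of MT-TQ, a tRNA gene with at most 52 counts in any library (-0.88, SE 0.240). MT-ATP8 changed by -0.47 (SE 0.132), with 345 and 394 CPM against 597 and 428, and MT-ND6 by -0.25 (SE 0.0503), with 150 and 164 against 179 and 194. MT-RNR1, MT-RNR2, MT-CO3, MT-ND4L and MT-ND4 were the other members called by edgeR. DESeq2 called 1 of the 8. The count was 2 without IN replicate 1 or P+I replicate 1, 13 without IN replicate 2 and 16 without P+I replicate 2, and 5 without either untreated library.

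Ratios within the mitochondrial counts of a library do not depend on how the libraries were scaled, and for MT-RNR2 they were close between duplicates, including the untreated SUM159 pair. In that pair MT-RNR1, MT-ND3 and MT-ND6 were further apart. The large rRNA was counted against the 13 mRNAs together. Both are counts from poly(A) libraries, so a ratio also depends on how much of each RNA was captured, which was not tested. In A549 MT-RNR2 had 18.1 and 18.4 counts per 100 mRNA counts in untreated cells, 21.2 and 21.8 with PD, 25.8 and 27.2 with IN and 26.2 and 26.5 with P+I. The groups were apart except IN and P+I, which overlapped. In SUM159 the values were 8.67 and 9.13 untreated, 11 and 10.1 with PD, 10.4 and 10.8 with IN and 11.3 and 11.6 with P+I. All treated libraries lay above the untreated ones, and PD and IN overlapped. The ratio to untreated was 1.18 with PD, 1.45 with IN and 1.44 with P+I in A549, and 1.19, 1.19 and 1.29 in SUM159. MT-RNR1 had 1.16 and 1.13 counts per 100 mRNA counts in untreated A549, 1.23 and 1.40 with PD, 1.61 and 1.78 with IN and 1.76 and 1.69 with P+I. In SUM159 it had 0.923 and 1.21 untreated, 0.879 and 0.823 with PD, 0.946 and 0.957 with IN and 0.814 and 0.814 with P+I, so that both rRNAs were above the untreated range in treated A549 while in SUM159 only MT-RNR2 was. Against the 6 mRNAs with under 1% of windows copied in the nuclear genome, every MT-RNR2 ratio kept its direction. An exact permutation test of 2 against 2 libraries cannot give a two-sided p below 0.333, and no test of these ratios was made.

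**Figure D4:**
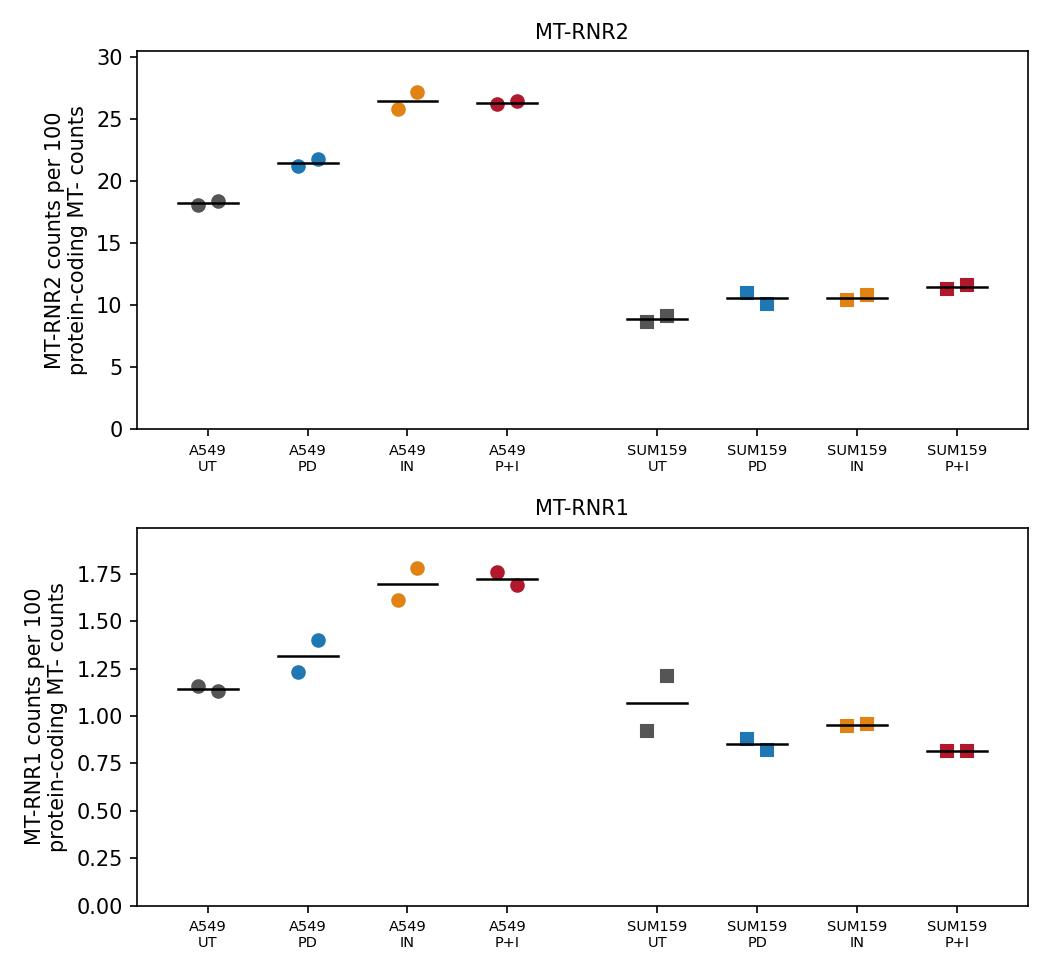
Counts of MT-RNR2 (top) and MT-RNR1 (bottom) per 100 counts of the 13 protein-coding mitochondrial genes, by library (points) with the group mean (line). MT-RNR2 climbs from about 18 in untreated A549 to 25.8 or more with indisulam, and stays between 8.67 and 11.6 in SUM159.

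The mRNAs also differed in their shares of the 13-gene total. MT-CO1 made up 23.0% and 23.1% in untreated A549 and 22.6% and 22.0% in untreated SUM159. It was 25.6% and 25.2% with PD, 23.2% and 23.5% with IN and 25.2% and 24.7% with P+I in SUM159, above both untreated libraries in each group. MT-ND5 made up 8.02% and 7.80% in untreated A549, the highest of that line, and 7.18% and 7.13% with PD. In SUM159 it went the other way, from 5.05% and 4.79% untreated to 5.61% and 5.59% with PD, 5.44% and 5.33% with IN and 5.85% and 5.93% with P+I. MT-CYB made up 6.59% and 6.65% in untreated SUM159, 5.93% and 6.04% with PD and 7.03% and 6.94% with IN, so that the single drugs lay on opposite sides of the untreated pair, and 6.57% and 6.69% with P+I, which spans it. MT-ND1, a core subunit of complex I, made up 5.67% and 5.75% in untreated SUM159 and 4.78% and 4.79% with P+I. MT-ND6 made up 0.306% and 0.457% in the untreated SUM159 libraries, the widest gap in proportion between duplicates of any mRNA there, and 0.273% and 0.248% with P+I. These are differences in makeup: a share can move because another gene's counts move, and for MT-CO1 36.6% of windows are shared with nuclear copies.

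The tRNAs were close to the limit of these libraries, which hold between 62 and 227 tRNA counts each. Of the 22 tRNA genes 7 had 0 counts in all 16 libraries (MT-TG, MT-TH, MT-TL2, MT-TM, MT-TR, MT-TS2 and MT-TV). Such a count allows up to 3 counts per library, or between 0.0880 and 0.164 CPM. The libraries were made from poly(A) RNA and read as 75 bases, and the tRNA genes are 59 to 75 bases long. The bound therefore holds for the counts and not for the level of tRNA in the cells. A further 8 had a mean under 10 counts in both lines. The remaining 7, MT-TI, MT-TQ, MT-TA, MT-TS1, MT-TE, MT-TT and MT-TP, reached at most 54 counts in any library. Of these 7, 5 were among the 8 tRNA genes of the minus strand and 2 among the 14 of the plus strand. The strand setting of the counting is not stated, so reads from the opposite strand cannot be told apart from theirs. Their log2 differences from untreated in SUM159 ran from -0.08 to 1.43 with PD and from 0.33 to 1.33 with IN. By edgeR 4 of 7 were called higher with PD and 2 of 7 with IN, beside 25.5% and 21.9% of all genes. These differences contain the untreated SUM159 pair and were used in the choice of the set, so nothing is read from the counts.

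Nuclear genes for mitochondrial proteins were followed in lists, whose members the choice of the set did not use. In SUM159 with PD, 60 of 78 genes for mitochondrial ribosomal proteins were lower and 4 higher (median log2 change -0.23). Of all genes tested 29% were lower and 25.5% higher. With P+I 57 were lower and 7 higher (median -0.31), beside 33.1% of all genes lower and 32.2% higher. With IN 31 were lower and 11 higher (median -0.08), beside 24.9% and 21.9%. These shares of all genes also stand beside the next 2 lists. The genes for mitochondrial RNA processing and decay had 17 of 25 lower and 3 higher with PD, 10 and 4 with IN and 18 and 2 with P+I, with medians of -0.22, -0.08 and -0.31. The genes for mtDNA replication and maintenance had 9 of 14 lower and 2 higher with PD (median -0.36), 5 and 4 with IN (median -0.01) and 9 and 4 with P+I (median -0.23). Without untreated replicate 2 the ribosomal counts with PD were 54 lower and 2 higher and those with P+I 57 and 5. Those for RNA processing were then 14 and 1, 8 and 2, and 18 and 2, and those for replication 9 and 1, 4 and 2, and 8 and 3. The shares of all genes called in that fit are not given here. With all libraries the ribosomal and RNA processing lists had negative medians with each treatment in SUM159, where the 13 mitochondrial mRNAs had positive ones. The median of the replication list with IN turned to 0.01 without untreated replicate 1. In A549 the medians with PD, IN and P+I were -0.08, 0.05 and -0.05 for the ribosomal list. They were -0.07, -0.01 and -0.13 for RNA processing and -0.16, 0.08 and 0.003 for replication. Of 77 ribosomal genes tested in A549, 23, 15 and 30 were lower and 4, 19 and 15 higher. Over all A549 genes 21.1%, 25.9% and 30.4% were lower and 22%, 23.3% and 27.4% higher. For RNA processing 6, 6 and 13 of 25 were lower and 1, 4 and 4 higher, and for replication 8, 5 and 6 of 14 and 1, 7 and 5. With PD the medians of all 3 lists were thus negative in A549 too. With IN those of the ribosomal and replication lists were positive.

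Subunits of the chain encoded in the nucleus were followed by complex. In SUM159 the 37 nuclear genes of complex I had a median log2 change of -0.02 with PD, -0.06 with IN and -0.07 with P+I, with 3, 6 and 7 higher (25.5%, 21.9% and 32.2% of all genes) and 11, 12 and 13 lower (29%, 24.9% and 33.1% of all genes). Complex IV had medians of 0.06, -0.11 and -0.05 over 11 genes, complex III 0.02, -0.07 and -0.12 over 9, and ATP synthase -0.01, -0.17 and -0.14 over 18. With IN 11 of the 18 ATP synthase genes were lower and 1 higher. Complex II, which has no mitochondrially encoded subunit, had medians of -0.11, -0.28 and -0.46 over 4 genes, of which 4 were lower with IN, and 3 lower and 1 higher with P+I. In A549 the same lists had medians between -0.19 and 0.20 in all 3 treatments, with 7 of 11 complex IV genes higher and 0 lower with PD, beside 22% and 21.1% of all genes.

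With IN the subunits named here had the largest called fall of their lists in both lines. Changes beyond the list medians were thus fixed by how they were picked. In SUM159 the largest called rises with IN were NDUFA7 in complex I, UQCR11 in complex III and ATP5IF1 in ATP synthase. No complex II gene was called higher there. NDUFS1, a core subunit of complex I, had 177 and 177 CPM in untreated SUM159 and 91.5 and 94.97 with IN, a log2 change of -0.93 (adjusted p = 3.2e-11, edgeR). In A549 NDUFS1 fell by 1.18 with IN (adjusted p = 3.37e-10). CYC1, cytochrome c1 of complex III, fell with IN by 0.69 in SUM159 (adjusted p = 7.08e-10), and SDHA, the catalytic subunit of complex II, by 0.57 (adjusted p = 1.48e-09). ATP5MC1, a subunit of the ATP synthase ring, fell by 0.53 with IN in SUM159 (adjusted p = 1.19e-08).

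**Figure D5:**
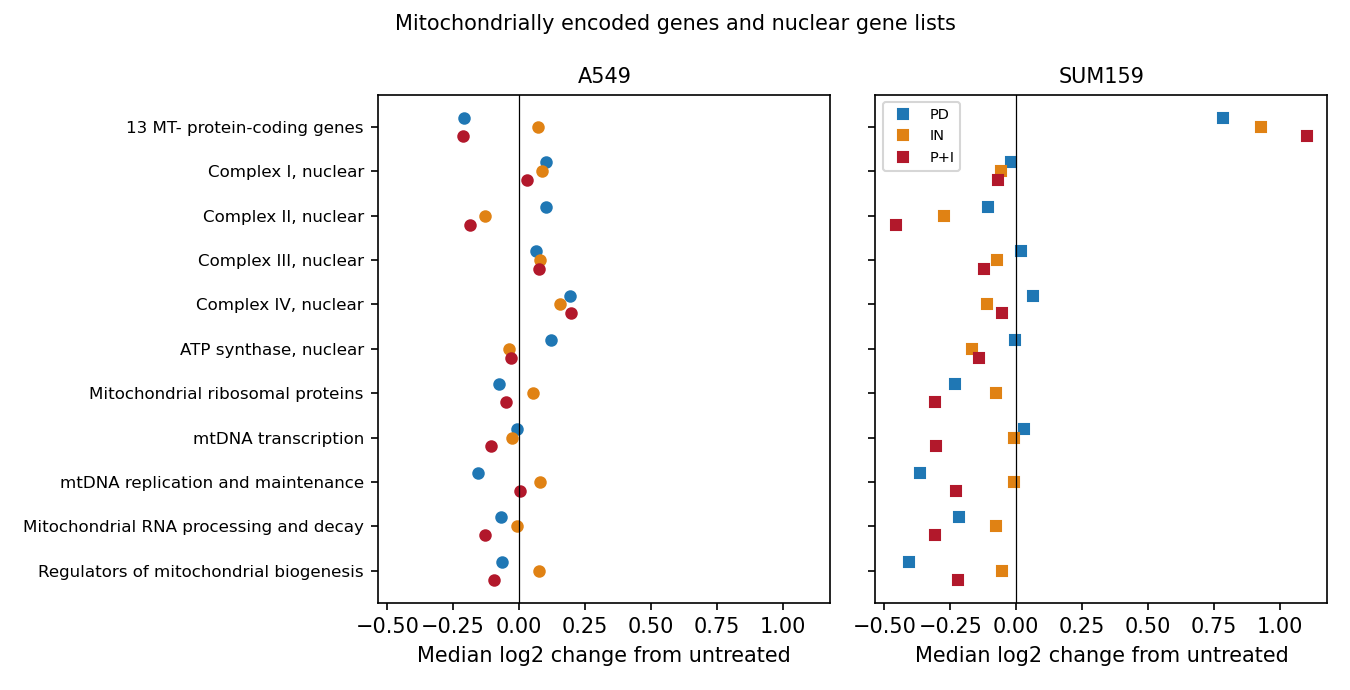
Median log2 change from untreated cells of the 13 mitochondrial mRNAs and of 10 lists of nuclear genes for mitochondrial proteins, in A549 (circles) and SUM159 (squares); colours give the treatment. In SUM159 the mitochondrial mRNAs lie at 0.78 to 1.10, while the highest median of a nuclear list is 0.06.

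The mtDNA transcription list had 9 genes in SUM159. With PD 4 were lower and 0 higher (median log2 change 0.03), with IN 2 and 1 (-0.01) and with P+I 6 and 1 (-0.31). Over all genes 29%, 24.9% and 33.1% were lower and 25.5%, 21.9% and 32.2% higher. TFAM had the largest called fall of that list with PD and with P+I. Among the factors that act on mitochondrial DNA and RNA, TFAM, which packages the DNA and starts its transcription, had 137 and 137 CPM in untreated SUM159, 83.7 and 76.98 with PD, 137 and 136 with IN and 72.7 and 80.8 with P+I. The PD and P+I groups lay apart from the other groups. TFAM fell by 0.77 with PD (adjusted p = 1.14e-09, edgeR) and by 0.84 with P+I (adjusted p = 2.21e-10), and its log2 change with IN was -0.01 (adjusted p = 0.926). In A549 TFAM had 125 and 130 CPM untreated and 99.8 and 104 with PD, and fell by 0.32 (adjusted p = 6.02e-05). The response of TFAM to PD was lower in SUM159 than in A549 by -0.35 (adjusted p = 0.00133). TFB2M, the factor that opens the promoter, fell by 0.30 with PD in SUM159 (adjusted p = 0.000985) and rose by 0.25 in A549 (adjusted p = 0.00878, lost without UT replicate 2, with 0.23, or PD replicate 2, with 0.16). The difference between those responses was -0.45 (adjusted p = 0.00279). For IN the difference between lines in TFB2M was -0.33 (adjusted p = 0.0233), and that call was lost without A549 UT replicate 2, A549 IN replicate 1, either SUM159 UT library or SUM159 IN replicate 2.

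POLRMT, the polymerase itself, fell by 0.34 with PD in SUM159 (adjusted p = 1.33e-05). LRPPRC, which stabilises mitochondrial mRNAs, fell in SUM159 by 0.28 with PD, 0.27 with IN and 0.52 with P+I on the log2 scale (adjusted p = 2.28e-05, 5.34e-05 and 9.25e-09). PNPT1, a ribonuclease that degrades mitochondrial RNA, had 137 and 138 CPM in untreated SUM159, 95.4 and 91.0 with PD, 92.4 and 87.5 with IN and 57.0 and 57.6 with P+I. It fell by 0.56, 0.61 and 1.26 (adjusted p = 6.36e-09, 6.77e-09 and 1.37e-13), and in A549 by 0.34, 0.52 and 0.79 (adjusted p = 3.20e-05, 5.94e-07 and 3.29e-09). The fall of PNPT1 was thus present in both lines. MTPAP, the poly(A) polymerase of mitochondria, fell by 0.38 with PD in SUM159 (adjusted p = 1.58e-05) and by 0.27 in A549 (adjusted p = 0.0026).

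The list of regulators of mitochondrial biogenesis had 10 genes. With PD 6 were lower and 1 higher in SUM159 (29% and 25.5% of all genes), and 4 and 1 in A549 (21.1% and 22%). The called rise was TFEB in both lines. NRF1 is named for the largest called fall of the list with PD in both lines. Its change beyond the list median was thus fixed by that choice. Among regulators of nuclear genes for mitochondria, NRF1 had 22.5 and 21.7 CPM in untreated SUM159 and 8.14 and 7.66 with PD, and fell by 1.49 (adjusted p = 8.93e-11, edgeR). In A549 NRF1 had 24.5 and 21.9 CPM untreated and 9.99 and 8.90 with PD, and fell by 1.31 (adjusted p = 3.32e-08). With IN its log2 change was -0.05 in SUM159 (adjusted p = 0.610) and 0.06 in A549 (adjusted p = 0.573). PPRC1, a coactivator of the same family as PPARGC1A, fell with PD by 0.66 in SUM159 (adjusted p = 1.89e-10) and by 0.45 in A549 (adjusted p = 2.14e-06). PPARGC1A, a coactivator of mitochondrial biogenesis, stood at low levels in SUM159, with 3.57 and 3.50 CPM untreated, 4.95 and 4.04 with PD, 7.02 and 6.28 with IN and 8.02 and 7.57 with P+I. It rose by 0.91 with IN (adjusted p = 6.18e-05) and by 1.14 with P+I (adjusted p = 1.25e-06). In A549 PPARGC1A was at 19.6 and 18.99 CPM untreated, and its log2 change with IN was 0.13 (adjusted p = 0.186). The response of PPARGC1A to IN was higher in SUM159 by 0.78 (adjusted p = 0.00146).

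Nuclear pseudogene copies of mitochondrial DNA share sequence with the set, so their values are given as a description too. Of 11 matched copies 7 passed the low-count filter in SUM159, and 6 of them were higher and 0 lower with each treatment (25.5%, 21.9% and 32.2% of all genes higher), with medians of 0.86 (PD), 0.88 (IN) and 1.13 (P+I). MTATP6P1, a near-identical copy of MT-ATP6 and its neighbours on chromosome 1, had 468 and 219 CPM in the untreated SUM159 libraries, so it was lower in replicate 2 by -1.09 on the log2 scale, as MT-ATP6 was by -0.99. With IN MTATP6P1 had 749 and 734 CPM, a log2 difference of 1.11 that ran from 0.66 to 1.76 with 1 library left out. MTCO1P12 had 14.5 and 9.39 CPM untreated and 26.5 and 26.1 with PD, a log2 difference of 1.14 that ran from 0.86 to 1.49. Without untreated replicate 2 the medians were 0.43, 0.49 and 0.70, with 4, 2 and 5 higher. Reads of these copies and of the mitochondrial genes share sequence, and how many of them came from the nucleus was not tested.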

How the data were processed

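RNA-seq gene counts of 16 libraries were used, and each library was put in 1 of 8 groups of 2 by its sample title. The authors deposited raw counts of reads per Ensembl gene for each library, with no normalization and no pooling, followed by sums of reads outside genes, ambiguous or not unique by chromosome. Stranded poly(A) libraries were read as pairs of 75 bases, trimmed by SeqPurge and placed on GRCh38 by HISAT2 2.2.1; HTSeq is named in the submitters' processing notes, and its version, strand setting and annotation are not given in the sources used here. Symbols and coordinates came from GENCODE release 44, which matched 58207 of 58676 identifiers, all 37 members included. Alignments set aside as not unique or ambiguous are in no gene's count, so levels of genes with nuclear copies or overlaps are uncertain.

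Tests across all genes used edgeR 4.0.16, run in R 4.3.3 (filterByExpr, trimmed mean of M-values (TMM) scaling, quasi-likelihood test, Benjamini-Hochberg adjustment over all genes, threshold 0.05). The 8 libraries of a line were fitted together (15744 genes in A549, 16080 in SUM159), and all 16 (17764 genes) for differences between lines. The fits were tested on simulated data. CPM values used TMM-scaled library sizes, and a floor of 3 counts limited detection; duplicates were compared at a mean of at least 5 CPM, on log2(CPM + 0.5). Standard errors of log2 changes came from the change and its F statistic. Exact 75-base windows of chromosome M were searched in 193 nuclear sequences, on both strands.

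Members and gene lists were chosen with earlier results of these data known. Named genes were the 13 mRNAs, the 2 rRNAs, tRNAs with a mean of at least 10 counts in a line, 11 factors of mitochondrial expression and, per list, called members with the largest rise or fall in a comparison with untreated cells; which of these the text describes was settled after their values were seen. The alternatives were RLE and total-count scaling, TMM without the MT- genes, no filter, at least 10 counts in every library, DESeq2 1.42.0, a replicate block and leaving out each library. The leaving out of SUM159 UT libraries for the lists, the crossed numbers and the denominator of mRNAs without nuclear copies were added after seeing the data. Pseudogenes that could not be matched by symbol were not used here.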

Additional observations from a re-analysis of the deposited data

Results flagged for a closer look

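In the edgeR fit of all 16 libraries, for the response to palbociclib 15 of the 22 mitochondrially encoded genes past the low-count filter were called higher in SUM159 than in A549, and for indisulam 13. Of all 17764 genes tested, 9.65% and 8.04% were called higher. DESeq2 called 6 and 2 of the mitochondrially encoded genes higher, and the share of all genes that it called is not given here. The set was chosen for this contrast, so these counts are a description and no test. Both differences contain the untreated SUM159 pair, whose 13 mRNAs stood 0.92 apart (median, log2) between the duplicates. Among the factors of mitochondrial expression, which the choice did not use, the difference between the lines was tested: TFAM differed between the lines by -0.35 for palbociclib, TFB2M by -0.45 for palbociclib and by -0.33 for indisulam, and PPARGC1A by 0.78 for indisulam, all on the log2 scale (SUM159 minus A549). Leaving out any of 5 libraries (A549 UT 2, A549 IN 1, SUM159 UT 1, SUM159 UT 2 or SUM159 IN 2) ended the call of TFB2M for indisulam. TFAM, TFB2M and PPARGC1A were not among the genes that set the untreated pair apart. Groups of 2 libraries are too small for a test of single samples far from the others.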

How the results depend on the processing

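Counts of called members and values named here moved most, and the cause was not tested unless stated. The share of all genes called under each alternative, or with 1 library left out, is not given here. The counts of members thus show only how far calls depend on the processing. With DESeq2 the members called were 1 lower for A549 PD against UT, 3 higher for A549 IN against UT, 1 lower for A549 P+I against IN, 11 higher for SUM159 PD against UT, 0 higher for SUM159 P+I against PD, 0 lower for SUM159 P+I against IN, and 6 and 2 higher for the differences between lines with PD and IN. For A549 P+I against IN, where 8 were lower, the count was 5 with RLE scaling, 3 with total-count scaling, 4 with TMM computed without the MT- genes, 5 with at least 10 counts in every library and 16 with no filter. For SUM159 P+I against IN, where 1 was lower, it was 0 lower with RLE scaling, total-count scaling (and 1 higher), TMM without the MT- genes and at least 10 counts, and 9 were higher with no filter. For SUM159 P+I against PD, where 2 were higher, 1 was with at least 10 counts and 14 with no filter. With no filter 12 were lower for A549 PD against UT, 1 lower for A549 IN against UT and 1 lower for A549 P+I against PD, and 1 was lower for A549 IN against UT also with at least 10 counts and with TMM without the MT- genes.

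Leaving out each library in turn gave ranges of 1 to 10 lower for A549 PD against UT, 3 to 5 higher and 0 to 1 lower for A549 IN against UT, 2 to 5 higher and 0 to 1 lower for A549 P+I against PD, 2 to 16 lower for A549 P+I against IN, 0 to 14 higher and 0 to 1 lower for SUM159 P+I against PD, 0 to 7 higher and 0 to 1 lower for SUM159 P+I against IN, and 7 to 15 and 3 to 15 higher for the differences between lines with PD and IN. The count of 17 lower in untreated SUM159 stayed between 15 and 18 under every alternative run.

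Same-numbered libraries of 2 groups did not deviate together (correlations between -0.158 and 0.164), so the numbers were not treated as pairs. With the number as a replicate block 4 members were lower for A549 P+I against IN and 0 for SUM159 P+I against IN, and no other count of called members moved by over 1.5 times. With crossed numbers 5 were lower for A549 PD against UT and 4 higher for SUM159 P+I against PD.

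Counting the 13 mRNAs alone, which by construction lowers every share, gave mean shares of 5.87% (UT), 5.27% (PD), 6.31% (IN) and 5.44% (P+I) in A549 and 4.83% (IN) and 5.86% (P+I) in SUM159. With reads outside genes in the denominator they were 5.99%, 6.79% and 5.86% in A549 UT, IN and P+I and 4.39%, 4.56% and 5.53% in SUM159 PD, IN and P+I. As shares of all 37 genes, which include the rRNAs, the log2 differences from untreated in A549 with PD, IN and P+I were -0.017, -0.0143 and -0.0253 for MT-CO1 (0.02, 0.09 and 0.08 among the mRNAs), -0.19, -0.20 and -0.20 for MT-ND5 and -0.0317, -0.13 and -0.0891 for MT-CYB; in SUM159 those of MT-CYB were 0.0565 with IN and -0.0281 with P+I. Against mRNAs without nuclear copies the log2 ratio of MT-RNR2 in A549 was 0.28 with PD and 0.57 with P+I, from 0.24 and 0.53. The log2 change of TFAM with IN in SUM159, -0.01, turned to 0.0476 with total-count scaling and to 0.0007 with no filter, and ranged from -0.0164 to 0.0091 with 1 library left out. Total-count scaling moved the median of all genes by up to 0.16 (SUM159 P+I against UT) and the share of higher calls there from 49.3% to 64.3%. Depth does not limit the mRNAs and rRNAs. For the tRNAs counts were low in libraries made from poly(A) RNA, and what limits them was not tested.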
